A study of Homo sapiens with 24 samples.

Results

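The genes described here are the human zinc finger genes named ZNF followed by a number, with or without 1 trailing letter, that reached a mean of at least 10 CPM over all 24 libraries of the series. CPM is the usual unit of expression scaled to library size, which relates a gene's read count to the total of its library, here with the mitochondrial transcripts left out of that total. Of 60366 entries in the deposited count table, 552 carry such a name, 531 of these had a count in at least 1 library, and 251 passed the 10 CPM minimum and are called the members below. The members were thus chosen by their mean level, and that level is given only as a description. ZNF446 (10.0 CPM), ZNF91 and ZNF773 (both 10.1 CPM) lay just inside the limit, and ZNF488 (9.996 CPM), ZNF34 (9.88 CPM) and ZNF668 (9.81 CPM) lay just outside it.

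Poly(A) RNA was sequenced from BXPC3, MIAPACA2 and PSN1, established pancreatic adenocarcinoma cell lines that the series title and design text describe as lacking MTAP, while each sample's genotype label reads WT. AM-9747 is a tool compound that inhibits PRMT5, an enzyme that methylates arginines of splicing factors and histones, and it acts in cooperation with methylthioadenosine, which builds up in cells without MTAP. Each line had 4 vehicle (DMSO) libraries and 4 AM-9747 libraries taken at day 6, with 100 nM in BXPC3 and PSN1 and 150 nM in MIAPACA2, so that for MIAPACA2 the dose and the line cannot be told apart. The labels do not say whether the 4 libraries of a group came from separate cultures, so the p-values measure the spread between these libraries, which may be technical.

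Most numbered ZNF genes encode C2H2 zinc finger proteins, in which each finger folds around a zinc ion and can read a few bases of DNA, and tandem fingers give a protein its binding sequence. Many carry a KRAB domain, which recruits the corepressor TRIM28 (KAP1) and, through it, the histone methyltransferase SETDB1, heterochromatin proteins and histone deacetylases, and these KRAB proteins are best known for silencing transposable elements. The family grew by tandem duplication, so that many of its genes lie side by side on chromosome 19. Other genes with such names have no KRAB box and serve as sequence-specific activators, chromatin complex subunits, ribosome or RNA factors, or are not DNA-binding proteins.

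The libraries held 22410000 to 45560000 counts, and the median member had at least 315 counts in each library. Mitochondrial transcripts took 4.34 to 43.8% of the counts, with the widest spread among PSN1 vehicle libraries (17.4 to 43.8%). PSN1 vehicle replicate 3 had counts for 16646 entries, the fewest of any library, and 8 of the 251 members at 0 counts. PSN1 vehicle replicate 1 had the lowest mitochondrial share of its group, and PSN1 results are given with and without these libraries where they moved. Epithelial keratins KRT8 and KRT18 were present in all lines, and the summed level of 6 ductal and epithelial markers was 8776 to 14880 CPM with vehicle and 6413 to 9175 CPM with AM-9747 in BXPC3, 1484 to 1901 and 1367 to 1634 CPM in MIAPACA2, and 2078 to 2708 and 1844 to 2184 CPM in PSN1, although EPCAM, KRT7 and CDH1 were under 1 CPM in the MIAPACA2 vehicle mean. The summed level of 4 acinar markers was 99.0 to 123.7 CPM in PSN1 vehicle libraries and 0.64 to 2.91 CPM with AM-9747, nearly all of it PRSS1, with CELA3A and PNLIP at 0. That of 3 fibroblast markers, mostly COL1A1, was 12.3 to 26.4 CPM with vehicle and 40.2 to 56.0 CPM with AM-9747 in PSN1, and 20.9 to 26.2 and 31.6 to 40.2 CPM in BXPC3. That of 3 blood markers, mostly CD68 with PTPRC under 0.1 CPM, was 36.0 to 44.4 CPM with vehicle and 5.61 to 24.7 CPM with AM-9747 in BXPC3. That of 2 endothelial markers was 17.0 to 22.4 CPM with vehicle and 28.6 to 34.95 CPM with AM-9747 in BXPC3, mostly CDH5, and 34.9 to 47.7 and 19.8 to 30.5 CPM in PSN1, nearly all PECAM1. In BXPC3 these 2 markers went opposite ways, with means from 13.4 to 29.3 CPM for CDH5 and from 5.52 to 2.78 CPM for PECAM1. The summed level of 4 mesenchymal markers was 9574 to 11550 CPM with vehicle and 7117 to 9082 CPM with AM-9747 in MIAPACA2, nearly all VIM, with CDH2 at 0. In PSN1 it was 1158 to 4295 and 2172 to 3276 CPM, mostly VIM and FN1, and in BXPC3 41.1 to 71.0 and 50.6 to 80.1 CPM. The VIM mean went from 1505 to 2028 CPM in PSN1 and from 9.14 to 19.3 CPM in BXPC3. That of FN1 went from 1002 to 764 CPM and from 42.2 to 32.6 CPM. The part of these markers in the responses of the members was not tested, and in bulk RNA fewer cells of a type and less RNA per cell cannot be told apart.

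All 251 members were matched to GENCODE 29 by their stable identifier, and 248 are protein coding. On chromosome 19 lay 93 members (37.1%), and 133 stood in runs of at least 5 numbered ZNF genes whose neighbours start within 500 kb of each other. A KRAB box was found by a fixed residue pattern in 114 of the 248 encoded proteins (45.97%), against 167 of the 256 protein-coding numbered ZNF genes that missed the level limit (65.2%). The pattern is strict, and it misses degenerate boxes. The median member protein had 9.5 C2H2 fingers (0 to 33), and 8 had none by the pattern searched. The non-members had a median of 11.0 fingers, and 149 of 256 (58.2%) were on chromosome 19.

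The median member had a mean level of 23.0 CPM. ZNF217, a gene of a chromosome 20 region often amplified in carcinomas whose protein works with the CtBP and LSD1 corepressors, had the highest mean CPM (192.5). It was followed by ZNF638, an RNA- and DNA-binding nuclear matrix protein (188.8 CPM), and ZNF207, the spindle assembly factor BuGZ (179.3 CPM). Per kilobase of exonic sequence the order changed, with ZNF146 first at 35.8 CPM per kb, ZNF768 at 31.9, ZNF358 at 31.6 and ZNF217 at 31.2 CPM per kb. The vehicle means of all 3 lines reached 10 CPM for 175 members, those of 2 lines for 58 and that of 1 line for 18. A median of 0.73% of a member's 50-base transcript words also occurred in another gene, 75 members shared none, and 33 shared more than 10%. For the latter, reads could be split between genes by the counter, whose settings no source used here gives.

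The promoters of 4 genes are shown because their genes were the members that passed the test in the same direction in every line, with ZNF202, ZNF284 and ZNF330 higher and ZNF446 lower with AM-9747. Each is the 250 bases upstream of a RefSeq transcription start on GRCh38.p14, read 5′ to 3′ on the gene's strand, with capitals marking matches on either strand to the GC box (GGGCGG), the CCAAT box (CCAAT), the ETS core (CCGGAAG) or a YY1 core (GCCATNTT).
ZNF202, chr11:123741661-123741910, minus strand: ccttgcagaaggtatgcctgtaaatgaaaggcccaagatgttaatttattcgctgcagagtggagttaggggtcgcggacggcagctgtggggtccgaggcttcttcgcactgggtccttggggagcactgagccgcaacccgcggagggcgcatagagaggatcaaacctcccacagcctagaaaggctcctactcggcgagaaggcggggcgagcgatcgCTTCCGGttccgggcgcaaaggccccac
ZNF284, chr19:44071909-44072158, plus strand: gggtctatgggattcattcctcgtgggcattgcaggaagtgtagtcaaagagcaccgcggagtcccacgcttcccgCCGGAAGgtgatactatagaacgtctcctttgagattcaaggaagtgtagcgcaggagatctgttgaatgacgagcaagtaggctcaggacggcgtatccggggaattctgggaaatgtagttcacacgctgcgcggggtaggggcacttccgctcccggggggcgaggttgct
ZNF330, chr4:141220645-141220894, plus strand: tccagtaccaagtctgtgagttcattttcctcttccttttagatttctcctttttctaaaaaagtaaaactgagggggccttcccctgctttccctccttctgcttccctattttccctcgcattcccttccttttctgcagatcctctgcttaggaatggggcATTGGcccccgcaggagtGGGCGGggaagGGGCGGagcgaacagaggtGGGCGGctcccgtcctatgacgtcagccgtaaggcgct
ZNF446, chr19:58476102-58476351, plus strand: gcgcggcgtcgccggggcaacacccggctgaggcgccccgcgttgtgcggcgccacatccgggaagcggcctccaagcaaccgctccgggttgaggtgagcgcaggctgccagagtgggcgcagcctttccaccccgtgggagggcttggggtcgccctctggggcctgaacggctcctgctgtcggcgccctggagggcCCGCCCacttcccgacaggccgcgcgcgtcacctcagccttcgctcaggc
ZNF202 and ZNF284 each held 1 ETS core, ZNF330 held 3 GC boxes and a CCAAT box, and ZNF446 held 1 GC box. ZNF202 and ZNF446 have a second RefSeq start further downstream that is not shown. Over all 35116 RefSeq promoter windows of this length, 42.6% held a GC box, 32.0% a CCAAT box, 8.52% an ETS core and 3.86% a YY1 core. Over the 280 windows of the 212 members with an entry these shares were 56.8%, 38.9%, 28.9% and 5.71%. The ETS core stood in a window of 10 of 23 members called higher in the mean response of the lines, 24 of 61 called lower and 42 of 128 not called. These matches describe letters and are not measured binding sites.

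More of the members fell than rose with AM-9747 in every line, but the balance turned without TMM scaling in MIAPACA2, with the mitochondrial share as a covariate in PSN1, and in BXPC3 among the 146 members at 10 CPM or more in each group. In BXPC3, 22 of 251 members rose (8.77%) and 58 fell (23.1%), while of all 17638 genes tested 13.2% rose and 16.0% fell. In MIAPACA2, 13 of the 248 members tested rose (5.24%) and 32 fell (12.9%), against 6.67% and 6.95% of all 18059 genes. In PSN1, 9 of 251 members rose (3.59%) and 23 fell (9.16%), against 4.21% and 6.26% of all 18309 genes. The test was edgeR's quasi-likelihood test in each line alone, with Benjamini-Hochberg adjustment over all genes tested and a limit of adjusted p = 0.05. Among all genes that reached the same mean of 10 CPM, 13.6% rose and 17.9% fell in BXPC3. In MIAPACA2 these shares were 7.37% and 10.0%, and in PSN1 6.11% and 7.62%. Of the members' calls 72.5%, 71.1% and 71.9% were falls in BXPC3, MIAPACA2 and PSN1, against 56.9%, 57.6% and 55.5% in that set. No set test was run, so these shares are descriptions.

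In BXPC3, MIAPACA2 and PSN1 the members had a median log2 change of -0.09, -0.09 and -0.17, against -0.02, -0.07 and 0.15 for all genes with a mean of at least 10 CPM. The separation was widest in PSN1 and smallest in MIAPACA2. Without TMM scaling the median of all genes shifted by 0.14 in MIAPACA2, and its members then split into 21 higher and 15 lower, with a median of 0.06 against 0.14 for all genes. The PSN1 split became 11 higher and 16 lower without scaling, and 15 higher and 9 lower with the mitochondrial share as a covariate. Single libraries moved the counts of the last 2 lines by more than 1.5 times. For MIAPACA2, 26, 21, 16, 22 and 18 members were called without vehicle replicate 1, vehicle replicate 3, AM-9747 replicate 1, AM-9747 replicate 2 and AM-9747 replicate 4. For PSN1, 61 were called without vehicle replicate 1, 9 without vehicle replicate 2, 7 without vehicle replicate 4, and 16, 6, 16 and 9 without AM-9747 replicates 1, 2, 3 and 4, while omitting vehicle replicate 3 left 37. The calls among all genes moved as well. In PSN1, 12.9% of them rose and 10.0% fell without vehicle replicate 1, and 1.21% and 2.18% without vehicle replicate 4. In MIAPACA2, 3.13% rose and 2.96% fell without AM-9747 replicate 1. Falls outnumbered rises among the members in each of these refits.

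**Figure D1:**
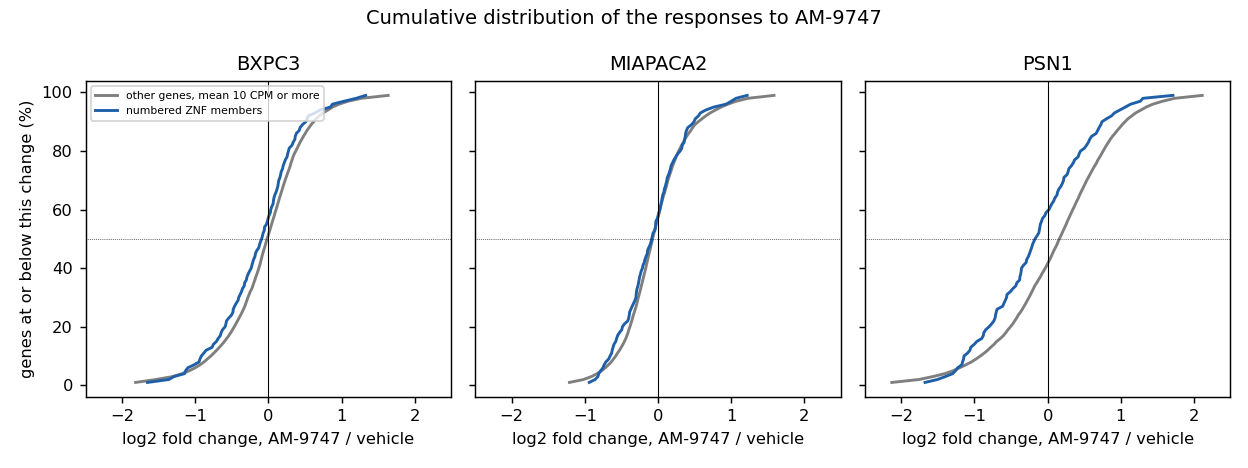
Percentiles of the log2 fold change (horizontal) for the members (blue) and for other genes with a mean of at least 10 CPM (grey) in each line; the vertical axis is the percentage of genes at or below that change. The members' curve lies left of the other genes at its median in BXPC3, MIAPACA2 and PSN1 (-0.09, -0.09 and -0.17), and the gap is widest in PSN1.

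The 10 CPM minimum was set on the mean of all groups, so a gene that fell from a high vehicle level could pass through its vehicle libraries, and a gene that rose through its treated libraries. Of the 146 members at 10 CPM or more in each of the 6 groups, 18 rose and 15 fell in BXPC3. In MIAPACA2 10 of them rose and 18 fell, and in PSN1 6 rose and 11 fell. That selection itself leaves out genes that fell below the limit. Of all numbered ZNF genes that could be tested, at any level, 29 rose and 108 fell of 448 in BXPC3, 20 and 48 of 460 in MIAPACA2, and 9 and 26 of 463 in PSN1.

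Rises and falls occurred among members with and without a KRAB box found by the strict pattern, on chromosome 19 and elsewhere. In BXPC3, 10 members with a box found rose and 26 of 114 fell (22.8%). Of those with none found, 12 rose and 31 of 134 fell (23.1%). MIAPACA2 had 7 rises and 12 falls among 113 tested members with a box found and 6 and 19 among 132 with none found. PSN1 had 3 rises and 13 falls among 114 with a box found and 6 and 9 among 134 with none found. The pattern misses degenerate boxes, so some members with none found may have one. On chromosome 19, 12, 6 and 5 of 93 members rose and 23, 14 and 12 fell in BXPC3, MIAPACA2 and PSN1. Elsewhere 10 rose and 35 fell of 158 in BXPC3, 7 and 18 of 155 in MIAPACA2, and 4 and 11 of 158 in PSN1. These differences between subsets were not tested.

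Over the 3 lines 120 of the 251 members passed in at least 1 line and 131 in none. Of the 10770 genes with a mean of at least 10 CPM, 4824 passed in at least 1 line and 5946 in none. The 4 members that passed the same way in every line were ZNF202, ZNF284 and ZNF330 (rises) and ZNF446 (a fall), which is 1.59% of the members, against 2.33% of all 10770 genes with a mean of at least 10 CPM. A further 4 rose and 25 fell in 2 lines, against 431 and 643 of the 10770 genes. No member was called in opposite directions in 2 lines, while 167 of the 10770 genes were. The calls in a single line numbered 47 in BXPC3, 21 in MIAPACA2 and 19 in PSN1, against 1972, 712 and 648 of the 10770 genes.

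ZNF202 (chr11:123724177-123741675, minus strand, ENSG00000166261) encodes a SCAN-domain zinc finger repressor known for binding promoters of lipid metabolism genes. BXPC3 libraries had 26.2, 23.4, 24 and 23.2 CPM with vehicle and 65.5, 71.4, 81.8 and 98.5 CPM with AM-9747. MIAPACA2 libraries had 23.1, 18.5, 19.6 and 33.0 CPM with vehicle and 51.0, 64.0, 38.1 and 50.1 CPM with AM-9747. PSN1 libraries had 42.5, 85.2, 76.6 and 95.6 CPM with vehicle and 119, 175, 232 and 217 CPM with AM-9747. Every treated library lay above every vehicle library of its line, and PSN1 was the highest line under both conditions. The rise was 3.26-fold in BXPC3 (log2 change 1.70, SE 0.15, edgeR adjusted p = 7.8e-05), 2.22-fold in MIAPACA2 (log2 change 1.15, SE 0.22, edgeR adjusted p = 0.0082) and 2.43-fold in PSN1 (log2 change 1.28, SE 0.30, edgeR adjusted p = 0.023). The BXPC3 and MIAPACA2 calls held without any 1 library, and the PSN1 call was lost without vehicle replicates 2 or 4 or AM-9747 replicates 2, 3 or 4 (adjusted p up to 0.068).

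ZNF330 (chr4:141220887-141234697, plus strand, ENSG00000109445) encodes the nucleolar protein NOA36, and no C2H2 finger was found in it. In BXPC3 it had 46.5, 40.8, 43.9 and 45.9 CPM with vehicle and 68.6, 81.5, 86.6 and 88.9 CPM with AM-9747. In MIAPACA2 the vehicle libraries had 18.9, 18.9, 19.7 and 18.7 CPM and the treated libraries 44.3, 36.8, 28.3 and 37.97 CPM. In PSN1 they had 32.5, 28.6, 22.4 and 31.9 CPM and 49.3, 57.7, 58.4 and 67.2 CPM. The groups did not overlap in any line, and the rise was 1.83-fold, 1.99-fold and 1.98-fold in the order given. The log2 changes were 0.87 (SE 0.13, edgeR adjusted p = 0.00086), 0.99 (SE 0.15, adjusted p = 0.0023) and 0.99 (SE 0.21, adjusted p = 0.017) in BXPC3, MIAPACA2 and PSN1. The test of a difference between the lines gave an adjusted p of 0.92. The PSN1 call was lost without vehicle replicates 2 or 4 or AM-9747 replicates 2 or 4 (adjusted p up to 0.066).

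ZNF284 (chr19:44072144-44089613, plus strand, ENSG00000186026) is a KRAB zinc finger gene with 11 fingers. Its BXPC3 libraries had 7.78, 11.4, 8.20 and 8.53 CPM with vehicle and 15.8, 21.6, 20.2 and 19.6 CPM with AM-9747. MIAPACA2 had 8.91, 6.58, 6.98 and 11.5 CPM, then 20.4, 35.3, 17.3 and 25.8 CPM, and PSN1 had 14.2, 25.1, 10.2 and 28.8 CPM, then 29.3, 53.3, 65.7 and 48.0 CPM. No treated library overlapped the vehicle range, although the highest PSN1 vehicle library and the lowest treated one were nearly equal. The rises were 2.14-fold (edgeR adjusted p = 0.0014), 2.99-fold (adjusted p = 0.004) and 2.47-fold (adjusted p = 0.043) in BXPC3, MIAPACA2 and PSN1, and the PSN1 call was lost without vehicle replicates 1, 2, 3 or 4 or AM-9747 replicates 2, 3 or 4 (adjusted p up to 0.12). Its transcripts share 43.9% of their 50-base words with other genes, mainly AC067968.1, which overlaps it on the same strand, so its level is uncertain.

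ZNF446 (chr19:58474017-58481230, plus strand, ENSG00000083838), also named ZKSCAN20, has 3 fingers by the pattern searched. In BXPC3 it had 11.5, 8.17, 11.4 and 12.4 CPM with vehicle and 1.95, 3.31, 4.34 and 3.98 CPM with AM-9747. MIAPACA2 had 14.4, 11.0, 11.6 and 16.8 CPM, then 8.39, 5.78, 10.4 and 7.01 CPM, and PSN1 had 12.8, 16.3, 16.4 and 18.7 CPM, then 7.82, 7.03, 9.10 and 5.57 CPM. The treated libraries lay below the vehicle libraries in every line, and BXPC3 lost the largest share. The fall was 3.22-fold in BXPC3 (edgeR adjusted p = 0.0013), 1.67-fold in MIAPACA2 (adjusted p = 0.048) and 2.21-fold in PSN1 (adjusted p = 0.033). The MIAPACA2 call was lost without vehicle replicates 1, 3 or 4 or AM-9747 replicates 1, 2 or 4 (adjusted p up to 0.13). It was also lost without TMM scaling, with a filter at a mean of 5 CPM, with a replicate block and in a joint fit of the lines. The PSN1 call was lost without vehicle replicates 2 or 4 or AM-9747 replicates 1, 2, 3 or 4 (adjusted p up to 0.12), without the filter on low counts, and with the mitochondrial share as a covariate. ZNF446 shares 26.1% of its 50-base words with ZNF324, which starts 7.0 kb upstream and overlaps it on the same strand, and ZNF324 itself fell in BXPC3 (log2 change -0.69, adjusted p = 0.0037).

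**Figure D2:**
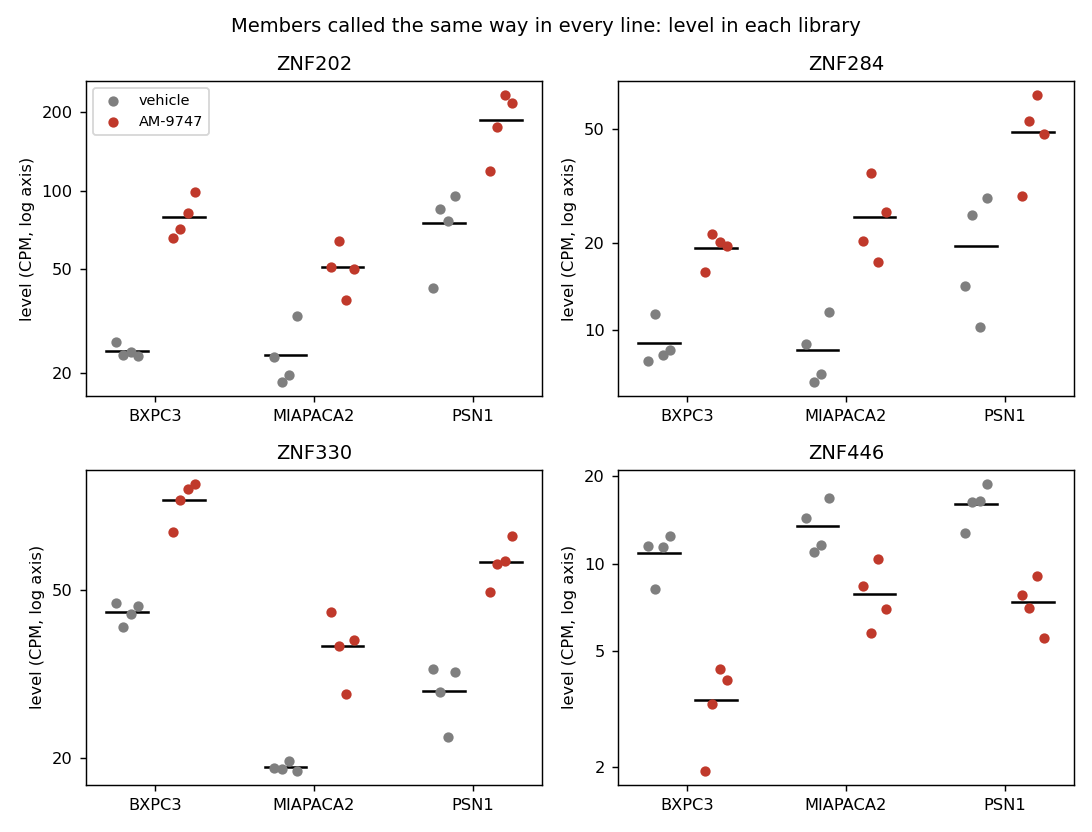
Level in CPM (log axis) of the 4 members called the same way in every line, 1 point per library, grey for vehicle and red for AM-9747, with the group mean as a bar (n = 4 per group). Treated and vehicle libraries do not overlap in any of the 12 pairs of groups, and ZNF202 reaches 232 CPM in a treated PSN1 library.

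In BXPC3 the 8 largest rises with no overlap of the groups were in ZNF202, ZNF432, ZNF76, ZNF224, ZNF331, ZNF121, ZNF284 and ZNF212, with log2 changes from 1.04 to 1.70. ZNF432 went from 21.7 ± 1.23 to 55.1 ± 11.4 CPM (SD, n = 4; log2 change 1.34, SE 0.17, edgeR adjusted p = 0.00042). ZNF331, a KRAB gene first described as rearranged in thyroid adenomas, went from 40.2 ± 0.868 to 101 ± 24.7 CPM (log2 change 1.33, SE 0.18, edgeR adjusted p = 0.00064). ZNF121 went from 38.1 ± 3.35 to 88.1 ± 6.88 CPM (log2 change 1.20, SE 0.11, edgeR adjusted p = 9.6e-05), and its levels in the other lines were 59.8 ± 13.6 CPM with vehicle and 56.1 ± 4.38 CPM with AM-9747 in MIAPACA2 and 80.7 ± 9.92 CPM with vehicle and 90.9 ± 17.8 CPM with AM-9747 in PSN1. ZNF76, which recognises the same promoter element as the activator ZNF143, rose in BXPC3 and in MIAPACA2, with log2 changes of 1.33 (edgeR adjusted p = 0.0026) and 0.93 (adjusted p = 0.006). Each of these BXPC3 calls held without any 1 library.

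The largest fall of any member was that of ZNF252P, a transcribed pseudogene, in BXPC3. Its vehicle libraries had 27.3, 28.6, 23.4 and 15.8 CPM and its treated libraries 4.04, 3.42, 2.53 and 1.66 CPM. The lowest vehicle library was thus several times above the highest treated one, a fall of 8.24-fold (log2 change -3.04, SE 0.28, edgeR adjusted p = 9.6e-05). The same gene went from 13.9 ± 2.88 to 8.57 ± 1.87 CPM in MIAPACA2 (adjusted p = 0.056) and from 12.7 ± 4.17 to 10.6 ± 1.19 CPM in PSN1 (adjusted p = 0.59). ZNF268, a KRAB gene with 24 fingers, had 26.7, 27.4, 24.9 and 23.2 CPM in BXPC3 vehicle libraries and 7.71, 9.18, 8.29 and 9.70 CPM in treated ones. It had 19.9, 22.6, 20.3 and 16.3 CPM, then 9.37, 10.7, 12.7 and 10.5 CPM in MIAPACA2, and 8.71, 13.8, 9.90 and 8.37 CPM, then 9.32, 10.4, 8.42 and 11.0 CPM in PSN1, where the groups overlapped. It fell 2.95-fold in BXPC3 (edgeR adjusted p = 6.6e-05) and 1.78-fold in MIAPACA2 (adjusted p = 0.0058), and not beyond the spread in PSN1 (adjusted p = 0.89). ZNF780B, ZNF189, ZNF558, ZNF514 and ZNF467 were the other large falls in BXPC3, with log2 changes from -1.67 to -1.30. All these BXPC3 calls held without any 1 library.

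In MIAPACA2 the largest rise was in ZNF862, which has a KRAB box and no C2H2 finger by the pattern searched. Its vehicle libraries had 50.7, 41.2, 44.0 and 66.4 CPM and its treated libraries 199, 209.9, 122 and 166 CPM, a 3.54-fold rise with no overlap (log2 change 1.82, SE 0.22, edgeR adjusted p = 0.00084). In BXPC3 the levels were 15.3, 17.6, 15.9 and 14.4 CPM with vehicle and 15.0, 20.6, 27.8 and 36.1 CPM with AM-9747, and in PSN1 42.9, 92.3, 58.1 and 84.2 CPM and 48.2, 70.2, 131 and 105 CPM. These 2 lines had overlapping groups and did not pass (adjusted p = 0.076 and 0.56). ZNF585B rose from 17.1 ± 2.10 to 33.4 ± 1.81 CPM (log2 change 1.01, SE 0.13, edgeR adjusted p = 0.0012), with 24.9% of its 50-base words shared with other genes. ZNF410, known for having the NuRD gene CHD4 as its chief target, rose from 28.4 ± 1.199 to 47.1 ± 8.60 CPM (log2 change 0.78, SE 0.15, edgeR adjusted p = 0.009), also with a large shared part (36.4%). ZNF805 had the smallest of these rises (log2 change 0.51, adjusted p = 0.027), and its call was lost without vehicle replicates 1, 2 or 3 or AM-9747 replicates 1, 2 or 4 (adjusted p up to 0.1) and without the filter on low counts.

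Among the MIAPACA2 falls ZNF300, a KRAB gene on chromosome 5, was the largest. It had 30.9, 21.5, 23.8 and 37.3 CPM with vehicle and 15.9, 12.6, 10.3 and 11.5 CPM with AM-9747, a 2.20-fold fall (log2 change -1.14, SE 0.21, edgeR adjusted p = 0.0067). BXPC3 had 8.14, 8.36, 9.18 and 7.87 CPM, then 4.04, 6.21, 5.25 and 4.40 CPM, also a fall (adjusted p = 0.0099), and PSN1 had 3.28, 3.95, 0 and 4.86 CPM, then 4.22, 4.11, 5.58 and 5.53 CPM, with 1 vehicle library at 0 counts. ZNF561, ZNF468, ZNF780B, ZNF367, ZNF268, ZNF260 and ZNF740 fell with log2 changes from -0.99 to -0.82. ZNF468 shares 55.8% of its 50-base words with other genes, chiefly ZNF320, so its level is uncertain. ZNF740 went from 48.4 ± 4.38 to 26.8 ± 7.15 CPM and also fell in BXPC3, from 92.6 ± 17.5 to 49.2 ± 6.54 CPM (edgeR adjusted p = 0.011 and 0.0019). ZNF367 went from 21.4 ± 1.195 to 11.1 ± 1.42 CPM (adjusted p = 0.0027). The call of ZNF468 was lost without vehicle replicates 1, 2, 3 or 4 or AM-9747 replicates 1, 2 or 4 (adjusted p up to 0.13), without TMM scaling, and with a filter at a mean of 5 CPM, that of ZNF561 without AM-9747 replicates 1 or 2 (adjusted p up to 0.059), and those of ZNF260 and ZNF740 without AM-9747 replicates 1 or 4 (adjusted p up to 0.052) and without AM-9747 replicates 1 or 4 (adjusted p up to 0.055).

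Of the 9 PSN1 rises, 3 were those of the shared genes, and the others were in ZNF473, ZNF557, ZNF507, ZNF185, ZNF175 and ZNF148. ZNF473 (ZFP100) belongs to the U7 snRNP machinery that cuts the 3′ end of histone transcripts, and its PSN1 libraries had 16.9, 11.4, 6.14 and 12.4 CPM with vehicle and 36.9, 26.6, 28.1 and 32.1 CPM with AM-9747. In BXPC3 it had 28.1, 30.7, 24.2 and 16.6 CPM, then 31.1, 26.5, 18.5 and 20.5 CPM, and in MIAPACA2 16.5, 20.4, 18.7 and 14.2 CPM, then 11.9, 10.7, 16.2 and 12.8 CPM. The groups were apart in PSN1 and overlapped in the other two. The PSN1 rise was 2.60-fold (log2 change 1.38, SE 0.31, edgeR adjusted p = 0.021), and it was lost without vehicle replicates 2 or 4 or AM-9747 replicates 1, 2 or 4 (adjusted p up to 0.064) and with the mitochondrial share as a covariate. ZNF557 had 29.4, 31.1, 32.0 and 33.6 CPM in PSN1 vehicle libraries and 62.0, 76.5, 89.9 and 83.9 CPM in treated ones (log2 change 1.28, SE 0.20, edgeR adjusted p = 0.0044), and its call held without any 1 library. ZNF185, an actin-associated LIM-domain protein with no C2H2 finger, went from 43.9 ± 15.6 to 101 ± 29.9 CPM (log2 change 1.18, SE 0.31, edgeR adjusted p = 0.035), and that call was lost without vehicle replicates 2 or 4 or AM-9747 replicates 1, 2, 3 or 4 (adjusted p up to 0.097) and with the mitochondrial share as a covariate. ZNF507 and ZNF175 had log2 changes of 1.25 and 1.14 (adjusted p = 0.016 and 0.013), the former lost without vehicle replicate 4 or AM-9747 replicate 2 (adjusted p up to 0.058).

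The KRAB genes ZNF558, ZNF514 and ZNF548 fell in BXPC3 and PSN1 and did not pass in MIAPACA2. The test of a difference between the lines gave an edgeR adjusted p of 0.0044, 0.051 and 0.0086 for them. ZNF558 had 26.0, 27.5, 27.1 and 21.1 CPM with vehicle and 7.61, 5.79, 7.78 and 10.9 CPM with AM-9747 in BXPC3. In PSN1 it had 89.2, 175, 83.3 and 152 CPM, then 26.3, 33.6, 38.5 and 37.0 CPM, and in MIAPACA2 32.3, 28.1, 28.6 and 41.2 CPM, then 28.4, 27.9, 21.6 and 25.8 CPM. The falls were 3.18-fold and 3.75-fold in the first 2 lines (edgeR adjusted p = 0.00033 and 0.0038), with overlap and adjusted p = 0.28 in MIAPACA2. ZNF514, on chromosome 2, went from 9.12 ± 1.61 to 3.63 ± 0.733 CPM in BXPC3 and from 55.4 ± 10.2 to 16.8 ± 0.687 CPM in PSN1 (adjusted p = 0.0014 and 0.0018). Its MIAPACA2 vehicle level was far higher, 112 ± 41.4 CPM, against 71.9 ± 11.5 CPM treated (adjusted p = 0.14). ZNF548 fell 2.21-fold in BXPC3 and 3.05-fold in PSN1 (adjusted p = 0.00018 and 0.0063). ZNF467, in which no KRAB box was found, had 5.03, 8.36, 11.1 and 4.17 CPM, then 1.78, 1.15, 1.67 and 1.32 CPM in PSN1. It was the largest PSN1 fall (log2 change -2.30, edgeR adjusted p = 0.016). That call was lost without vehicle replicate 2 or AM-9747 replicates 2 or 4 (adjusted p up to 0.069) and with the mitochondrial share as a covariate. The PSN1 calls of ZNF558, ZNF514 and ZNF548 held without any 1 library.

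Further members that fell in 2 lines were ZNF559, ZNF780B, ZNF226 and ZNF358. ZNF780B, with 21 fingers, fell in BXPC3 and MIAPACA2 (3.11-fold and 1.91-fold, edgeR adjusted p = 0.00083 and 0.0078), and in PSN1 it went from 14.1 ± 5.59 to 6.44 ± 1.95 CPM (adjusted p = 0.076). ZNF559 fell in BXPC3 and PSN1 (adjusted p = 0.0012 and 0.017) and ZNF358 in the same lines (adjusted p = 0.0063 and 0.02). ZNF559 and ZNF358 share 13.9% and 18.4% of their 50-base words with other genes. The PSN1 calls were lost without vehicle replicates 2 or 4 or AM-9747 replicates 2 or 3 (adjusted p up to 0.075) for ZNF559 and without vehicle replicates 2 or 4 or AM-9747 replicates 1, 2 or 4 (adjusted p up to 0.081) and with the mitochondrial share as a covariate for ZNF358. Further PSN1 falls were those of ZNF767P, ZNF75D and ZNF211, with log2 changes of -1.49, -1.40 and -1.24 (adjusted p = 0.0053, 0.035 and 0.016). The call of ZNF75D was lost without vehicle replicates 2 or 4 or AM-9747 replicates 1, 2, 3 or 4 (adjusted p up to 0.12) and with the mitochondrial share as a covariate and that of ZNF211 without vehicle replicates 2 or 4 or AM-9747 replicates 2 or 4 (adjusted p up to 0.064) and with the mitochondrial share as a covariate.

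Neighbours within 1 chromosome 19 cluster (chr19:43525497-44500524, GRCh38, 9 members of 23 numbered ZNF genes) moved in opposite directions. ZNF224 starts 22.2 kb after ZNF284 on the same strand and encodes a KRAB repressor of the aldolase A gene that has been described in complex with PRMT5. Its BXPC3 libraries had 31.1, 34.3, 34.5 and 34.6 CPM with vehicle and 62.5, 75.7, 86.2 and 115 CPM with AM-9747. MIAPACA2 had 41.1, 19.2, 23.2 and 45.6 CPM, then 73.8, 82.8, 39.8 and 67.2 CPM, and PSN1 49.1, 150.0, 70.6 and 133 CPM, then 86.2, 145, 222 and 215 CPM. The groups were separate in BXPC3 and overlapped in MIAPACA2 and PSN1. ZNF224 rose 2.51-fold in BXPC3 (log2 change 1.33, SE 0.19, edgeR adjusted p = 0.00084) and 2.09-fold in MIAPACA2 (adjusted p = 0.046), the latter lost without vehicle replicates 1, 2 or 3 or AM-9747 replicates 1, 2 or 4 (adjusted p up to 0.13). ZNF226, next on the chromosome after ZNF234, had 19.3, 19.4, 23.4 and 25.8 CPM, then 11.4, 9.44, 10.6 and 15.1 CPM in BXPC3 and 33.9, 54.4, 66.2 and 47.8 CPM, then 15.6, 22.3, 23.6 and 30.6 CPM in PSN1. It fell in both (log2 change -0.93 and -1.17, edgeR adjusted p = 0.0049 and 0.027), the PSN1 call being lost without vehicle replicates 2 or 4 or AM-9747 replicates 1, 2 or 3 (adjusted p up to 0.094) and with the mitochondrial share as a covariate. In BXPC3, ZNF428, ZNF230, ZNF284 and ZNF224 rose and ZNF234, ZNF226 and ZNF227 fell, so that 7 of the 9 members were called, against 31.5% of all genes with a mean of at least 10 CPM in BXPC3. The cluster was singled out after these values were seen. ZNF224, ZNF226 and ZNF234 share 0.38%, 0.67% and 1.47% of their 50-base words with other genes.

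**Figure D3:**
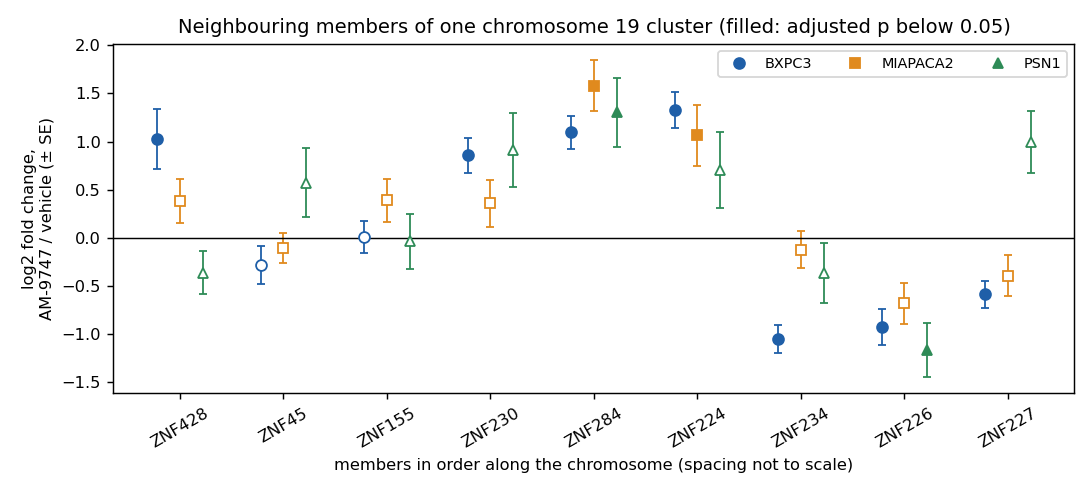
Log2 fold change with its standard error (vertical) for the 9 members of that cluster in chromosomal order (horizontal, spacing not to scale), by line; filled symbols passed at adjusted p = 0.05. In BXPC3 ZNF284 and ZNF224 lie at 1.09 and 1.33, and the next members ZNF234 and ZNF226 at -1.05 and -0.93.

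Members with roles outside KRAB repression were read from lists chosen with earlier results of these data known. In BXPC3, MIAPACA2 and PSN1, 31.5%, 17.4% and 13.7% of all genes with a mean of at least 10 CPM were called in either direction, which is the background of the list counts that follow. Of 12 RNA, ribosome and spindle genes, 1 rose and 2 fell in BXPC3, 1 rose and 2 fell in MIAPACA2, and 1 rose in PSN1, ZNF330 being the rise in each. ZNF326, a subunit of the DBIRD complex that joins RNA polymerase II to splicing, went from 46.9 ± 4.77 to 36.7 ± 1.14 CPM in BXPC3 and from 54.1 ± 3.08 to 40.03 ± 2.26 CPM in MIAPACA2 (edgeR adjusted p = 0.032 and 0.037). Both calls of ZNF326 are fragile, the former lost without vehicle replicates 1, 2 or 3 or AM-9747 replicates 1, 2, 3 or 4 (adjusted p up to 0.093) and without the filter on low counts and the latter without vehicle replicates 1, 2, 3 or 4 or AM-9747 replicates 1, 2 or 4 (adjusted p up to 0.1), without TMM scaling, without the filter on low counts, and with a filter at a mean of 5 CPM. ZNF346, a double-stranded RNA binding protein, fell in BXPC3 (log2 change -0.66, adjusted p = 0.0056). ZNF207 fell in MIAPACA2, from 214 ± 32.4 to 148 ± 26.7 CPM (adjusted p = 0.044), a call lost without vehicle replicates 1, 2 or 3 or AM-9747 replicates 1, 2 or 4 (adjusted p up to 0.16), without TMM scaling, and with mitochondrial transcripts in the totals. The ribosome factors ZNF598, ZNF622 and ZNF593 did not pass in any line (adjusted p from 0.078 to 0.99).

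Of 10 chromatin complex partners among the members, 1 was called in BXPC3, 2 of the 9 tested in MIAPACA2 and 0 in PSN1, all of them rises, against 13.6%, 7.37% and 6.11% of all genes with a mean of at least 10 CPM that rose. ZNF532 went from 45.9 ± 9.96 to 82.5 ± 7.92 CPM in BXPC3 (log2 change 0.83, SE 0.16, edgeR adjusted p = 0.0039) and from 38.4 ± 3.96 to 52.0 ± 3.65 CPM in MIAPACA2 (adjusted p = 0.022), the latter lost without vehicle replicates 1 or 3 or AM-9747 replicates 1, 2 or 4 (adjusted p up to 0.092) and without the filter on low counts. ZNF518A rose in MIAPACA2 (log2 change 0.93, adjusted p = 0.047), a call lost without vehicle replicates 1, 2 or 3 or AM-9747 replicates 1, 2 or 4 (adjusted p up to 0.13). ZNF217 had 378 ± 82.8 CPM with vehicle and 277 ± 40.3 CPM with AM-9747 in MIAPACA2, its highest line (edgeR adjusted p = 0.11).

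Of 13 members listed as sequence-specific activators or repressors, 3 rose in BXPC3 (ZNF76, ZNF263 and ZNF335), 2 in MIAPACA2 (ZNF76 and ZNF410) and 1 in PSN1 (ZNF148), against the same shares of all genes that rose. ZNF263 and ZNF335 had log2 changes of 0.45 and 0.36 (edgeR adjusted p = 0.011 and 0.044), lost without vehicle replicate 3 (adjusted p up to 0.051) and without the filter on low counts and without vehicle replicates 1, 2 or 3 or AM-9747 replicates 1, 2, 3 or 4 (adjusted p up to 0.14) and without the filter on low counts. ZNF148 went from 15.5 ± 3.66 to 29.7 ± 3.15 CPM in PSN1 (adjusted p = 0.039), lost without vehicle replicates 2 or 4 or AM-9747 replicates 1, 2, 3 or 4 (adjusted p up to 0.11), without the filter on low counts, and with the mitochondrial share as a covariate. ZNF143, the promoter-bound activator that resembles ZNF76, had 22.1 ± 2.50 CPM with vehicle and 26.4 ± 1.84 CPM with AM-9747 in BXPC3 and did not pass in any line (adjusted p from 0.15 to 0.73).

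Of 9 members listed as silencers of retroelements or imprints, ZNF202 rose in every line, ZNF248 fell in BXPC3 and MIAPACA2, and ZNF587 fell in BXPC3. ZNF202 is better known for lipid metabolism genes than for retroelements. ZNF91, which silences SVA and L1 elements, had 21.4 ± 2.85 CPM with vehicle and 16.1 ± 3.82 CPM with AM-9747 in MIAPACA2, its highest line, and did not pass (edgeR adjusted p = 0.2). ZNF445, a keeper of imprinted methylation, had 48.3 ± 11.2 CPM with vehicle and 37.8 ± 5.07 CPM with AM-9747 in PSN1 (adjusted p = 0.31). ZNF248 went from 9.76 ± 0.664 to 6.29 ± 1.25 CPM in BXPC3 and from 18.4 ± 2.95 to 10.2 ± 2.05 CPM in MIAPACA2 (adjusted p = 0.023 and 0.02). These calls were lost without vehicle replicates 2 or 3 or AM-9747 replicates 2 or 3 (adjusted p up to 0.07) in the first and without vehicle replicate 3 or AM-9747 replicates 1 or 4 (adjusted p up to 0.066) and without TMM scaling in the second. The ZNF587 call (adjusted p = 0.038) was lost without vehicle replicates 1, 2 or 3 or AM-9747 replicates 2, 3 or 4 (adjusted p up to 0.1). ZNF587 shares 18.8% of its 50-base words with other genes.

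The corepressor genes with which KRAB proteins work are not members. Of 22 such genes, 1 rose and 3 fell in BXPC3, 2 fell in MIAPACA2 and 3 rose in PSN1, against 29.2%, 13.6% and 10.5% of all genes tested that were called in either direction. TRIM28, the protein that binds the KRAB box, had log2 changes of 0.20, -0.25 and -0.37 in BXPC3, MIAPACA2 and PSN1 and passed in none (edgeR adjusted p = 0.36, 0.13 and 0.22). SETDB1 did not pass either (adjusted p = 0.22, 0.087 and 0.73). UHRF1, which guides maintenance methylation, fell in BXPC3 and MIAPACA2 and rose in PSN1 (log2 changes -0.46, -0.90 and 1.31, adjusted p = 0.023, 0.0014 and 0.036). The histone methyltransferase gene SUV39H2 and the deacetylase gene HDAC1 fell in BXPC3, SUV39H2 also fell in MIAPACA2, PPHLN1 of the HUSH complex rose in BXPC3, and CBX5 and DNMT1 rose in PSN1. SUV39H2 was low, with means from 14.7 to 6.65 CPM in BXPC3 and from 13.6 to 6.05 CPM in MIAPACA2. In a joint fit of the lines its calls there were lost (edgeR adjusted p = 0.22 and 0.27), as was that of UHRF1 in BXPC3 (adjusted p = 0.27). The other calls of these 22 genes named here held in that fit. Among 45 relatives named ZFP, ZSCAN, ZKSCAN or ZBTB with a mean of at least 10 CPM, 6 rose and 9 fell of 43 tested in BXPC3, 5 and 5 of 45 in MIAPACA2, and 1 and 3 of 44 in PSN1. Of all genes with such a mean, 13.6% rose and 17.9% fell in BXPC3. The shares were 7.37% and 10.0% in MIAPACA2 and 6.11% and 7.62% in PSN1, a background for both lists.

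In a joint fit of the 24 libraries, the mean response of the 3 lines passed for 25 members that rose (9.96%) and 74 that fell (29.5%), against 12.3% and 10.9% of all 22954 genes tested and 16.0% and 16.7% of those with a mean of at least 10 CPM. Left unscaled, it passed for 37 that were higher and 58 that were lower. The response differed between the lines for 36 members (14.3%), against 12.2% of all genes tested and 19.1% of those with a mean of at least 10 CPM. That count was 72 without PSN1 vehicle replicate 1, 22 without PSN1 vehicle replicate 4, 20 without PSN1 AM-9747 replicate 2 and 23 without BXPC3 vehicle replicate 3. The joint fit models the spread of the lines in common, and differences that rest on PSN1 are less certain for it. ZNF252P had the smallest adjusted p among the members named by rule (edgeR adjusted p = 0.00016), with the fall centred on BXPC3. ZNF121 (adjusted p = 0.0017) rose in BXPC3, with log2 changes of -0.06 and 0.14 in MIAPACA2 and PSN1. ZNF367 (adjusted p = 0.0023) fell in MIAPACA2 and went from 1.06 ± 0.730 to 5.63 ± 1.62 CPM in PSN1, where it did not pass (adjusted p = 0.096) and 1 vehicle library was at 0 counts. Over the 248 members tested in both, the log2 changes in BXPC3 and MIAPACA2 correlated at r = 0.55, those in BXPC3 and PSN1 at 0.41 (251 members) and those in MIAPACA2 and PSN1 at 0.21 (248 members), with no libraries shared between lines. For all genes with a mean of at least 10 CPM the values were 0.46, 0.34 and 0.15.

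The untreated lines differed from each other in many members. Between untreated BXPC3 and MIAPACA2, 57 members were higher in BXPC3 and 54 lower (of all 20068 genes tested 26.7% and 21.7%, 48.5% in either direction). Between BXPC3 and PSN1, 74 were higher and 89 lower in BXPC3 (31.5% and 29.4%, in all 60.9%), and between MIAPACA2 and PSN1, 41 were higher and 87 lower in MIAPACA2 (23.9% and 26.9%, in all 50.8%). The test was edgeR's quasi-likelihood test on the 12 vehicle libraries. The balance depended on scaling, since leaving out TMM moved the median of all genes by -0.33 and -0.24 in the first 2 comparisons and gave 33 higher and 75 lower, and 58 higher and 104 lower. A member that reached the limit through 1 line had to differ, so the 192 members at 10 CPM or more in both BXPC3 and MIAPACA2 were counted apart, with 41 higher and 26 lower. The corresponding counts were 52 and 61 of 186 for BXPC3 and PSN1, and 26 and 69 of 205 for MIAPACA2 and PSN1.

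Some members were nearly silent in 1 line, and they are described without a test because the untreated difference named them. ZNF334, a KRAB gene with 14 fingers, had 0 counts in all 8 MIAPACA2 libraries, which allows up to 3 counts or 0.0245 CPM over the vehicle group, against 12.8 ± 2.44 CPM in BXPC3 and 26.5 ± 12.7 CPM in PSN1 vehicle libraries. ZNF462, a large nuclear protein with 33 fingers, had 1 count over the 4 MIAPACA2 vehicle libraries and 7 over the treated ones, against 30.7 ± 7.26 CPM in BXPC3. ZNF704 had 7 and 0 counts in MIAPACA2, against 36.1 ± 7.83 CPM in BXPC3 and 3.79 ± 1.44 CPM in PSN1. These 3 genes were not tested in MIAPACA2, and the limits cover counting error only.

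ZNF600 and ZNF320 start 113.8 kb apart in another chromosome 19 cluster of 41 numbered ZNF genes, 23 of them members (chr19:51571298-53580269). ZNF600 vehicle libraries had 46.0, 51.0, 46.1 and 41.5 CPM in BXPC3, 0.148, 0.132, 0.770 and 0.711 CPM in MIAPACA2 and 20.4, 48.6, 26.4 and 30.6 CPM in PSN1. ZNF320 vehicle libraries had 38.8, 37.2, 32.9 and 26.3 CPM, 0.444, 0.562, 0.180 and 0.452 CPM and 30.1, 53.8, 38.1 and 54.4 CPM in the same order. All MIAPACA2 libraries were under 1 CPM for both, and AM-9747 left them there, at 0.610 ± 0.248 and 0.529 ± 0.165 CPM. ZNF525 in the same cluster was low in MIAPACA2 too (0.979 ± 0.660 CPM, against 29.7 ± 9.38 in BXPC3). Not all of the cluster was low there, since ZNF83 had 155 ± 61.1 CPM and ZNF160 had 47.6 ± 6.44 CPM. ZNF320 shares 75.2% of its 50-base words with other genes, chiefly ZNF468, and ZNF600 shares 10.0%. With AM-9747 ZNF600 fell in BXPC3 (log2 change -0.69, SE 0.11, edgeR adjusted p = 0.0014) and in PSN1 (adjusted p = 0.039), the PSN1 call being lost without vehicle replicates 2 or 4 or AM-9747 replicates 1, 2, 3 or 4 (adjusted p up to 0.14), without TMM scaling, and with the mitochondrial share as a covariate. In PSN1 the lowest of these genes was ZNF736, at 0.814 ± 0.758 CPM, against 31.8 ± 2.997 CPM in MIAPACA2.

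The 251 members together took 0.68 ± 0.064% of the non-mitochondrial counts in BXPC3 vehicle libraries and 0.67 ± 0.021% with AM-9747 (SD, n = 4). The shares were 0.79 ± 0.049% and 0.85 ± 0.078% in MIAPACA2 and 0.92 ± 0.18% and 0.86 ± 0.11% in PSN1. No difference in the share with AM-9747 was found beyond the spread between libraries in any line (exact permutation test of the means, two-sided, p = 0.80, 0.20 and 0.54, Benjamini-Hochberg 0.80, 0.60 and 0.80 over the 3 lines). The share moved with the mitochondrial share within PSN1 over its 8 libraries (Pearson r = 0.83, exact permutation p = 0.014, adjusted 0.041; Spearman rho = 0.76, exact permutation p = 0.037, adjusted 0.11), and r was 0.79 without the 2 libraries farthest from the median. In MIAPACA2 r was 0.69 (rho 0.67, exact permutation p = 0.053 and 0.083, adjusted 0.080 and 0.12), and 0.54 without 2 libraries. In BXPC3 r was -0.65 (rho -0.52, exact permutation p = 0.083 and 0.20, adjusted 0.083 and 0.20), and -0.80 without 2 libraries. The sign of r was thus not the same in the 3 lines, but only r in PSN1 passed after adjustment, so a difference in direction is not shown. These correlations pool vehicle and treated libraries and cannot separate treatment from the mitochondrial share. Of the 21 PSN1 calls of named members 10 were lost with the mitochondrial share as a covariate (edgeR adjusted p from 0.051 to 0.19), namely those of ZNF148, ZNF185, ZNF211, ZNF226, ZNF358, ZNF446, ZNF467, ZNF473, ZNF600 and ZNF75D. With it 6 other named members passed in PSN1, namely ZNF212, ZNF224, ZNF331, ZNF432, ZNF587 and ZNF862. No named call of BXPC3 or MIAPACA2 was lost with the covariate. In the joint fit of all lines 10 of the 36 named BXPC3 calls and 12 of the 24 in MIAPACA2 were lost, and 0 in PSN1. Those of BXPC3 were ZNF248, ZNF263, ZNF276, ZNF300, ZNF320, ZNF326, ZNF335, ZNF346, ZNF600 and ZNF83. Those of MIAPACA2 were ZNF189, ZNF207, ZNF224, ZNF300, ZNF326, ZNF367, ZNF446, ZNF468, ZNF518A, ZNF532, ZNF585B and ZNF805. The replicate block lost 8 MIAPACA2 calls, namely ZNF189, ZNF207, ZNF248, ZNF326, ZNF446, ZNF468, ZNF532 and ZNF805.

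**Figure D4:**
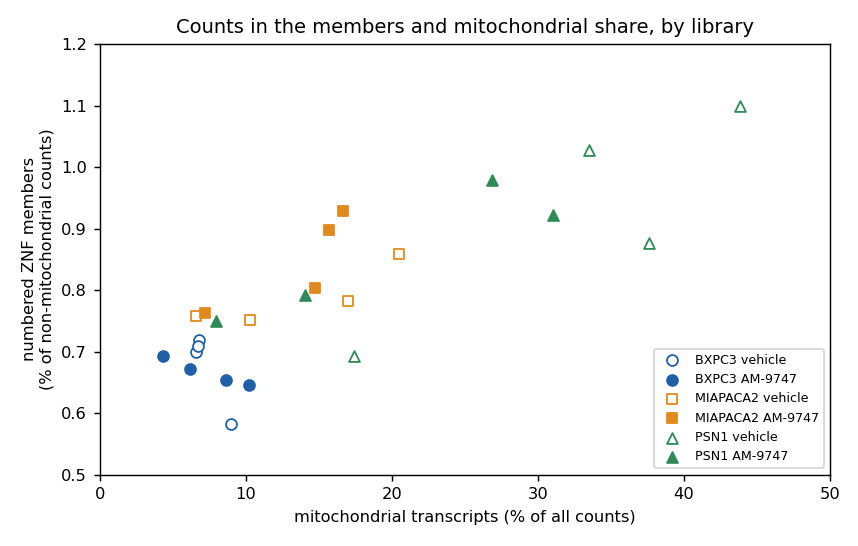
Share of non-mitochondrial counts in the members (vertical, percent, axis from 0.5) against the share of mitochondrial transcripts (horizontal, percent of all counts), 1 point per library; open symbols are vehicle and filled symbols AM-9747. PSN1 libraries spread from 0.69 to 1.10% and rise with the mitochondrial share (r = 0.83). In BXPC3 r was -0.65, which did not pass after adjustment, so a difference in direction is not shown.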

How the data were processed

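Poly(A) RNA was sequenced in 24 libraries, 4 per treatment and line, and the deposited values are whole-number read counts per gene. Per the submitters' processing notes, fastp 0.19.8, HISAT2 2.2.0, R 4.0.2, DESeq2 1.34.0 and GRCh38 were used, with no role given for each, and per the labels' protocols the libraries were stranded (NEBNext Ultra II Directional). For the counter and annotation, versions and settings were not given in the sources used here. Library totals were 22410000 to 45560000 counts.

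The 37 mitochondrial rows were left out of library totals. Each line was tested alone with edgeR 4.0.16 (filterByExpr, TMM scaling, quasi-likelihood test, Benjamini-Hochberg adjustment over all genes tested, limit 0.05), and levels are TMM-scaled CPM, while membership used unscaled CPM. The mean response and the difference between lines came from a joint fit of all libraries, and untreated lines from a fit of the 12 vehicle libraries. Both fits model the spread of the lines in common. In earlier simulations on these data, doing so gave many false calls in PSN1. The biological coefficient of variation was 26.6%, 32.1% and 55.2% in BXPC3, MIAPACA2 and PSN1. The script was tested on simulated data with planted changes in genes of any tested level. Changes of 2-fold were called in 46.3%, 55.2% and 1.49% of the changed genes in BXPC3, MIAPACA2 and PSN1. For 4-fold changes these shares were 84.8%, 71.2% and 36.4%, and 6.19%, 8.0% and 3.85% of the calls were false. A gene that did not pass, above all in PSN1, may thus still have changed. Fingers and KRAB boxes were searched in GENCODE 29 translations, and promoters come from RefSeq.

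Replicate numbers were not used to pair the samples in the main tests, since not every same-numbered pair correlated above 0.1. Within a line these correlations ran from -0.188 to 0.422, which does not exclude pairing. The members, role lists and rules were chosen with earlier results of these data known. Named genes were the 8 largest rises and falls per line among called members whose groups did not overlap, members called the same way in 3 lines and 10 called so in 2, the 10 highest by mean, 8 differing most between untreated lines, the 3 on each side of the limit, and the role lists, from which only some are printed. ZNF324, ZNF428, ZNF230, ZNF227, ZNF234, ZNF160 and ZNF768 were named after their values were seen. Alternatives were other scalings, totals, filters and tools, a replicate block, the mitochondrial share as a covariate, a joint fit, other member limits and leaving out each library.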

Additional observations from a re-analysis of the deposited data

Results flagged for a closer look

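In 3 groups of 4 libraries, 1 value stood far from the others by Dixon's test, with 102 groups tested and chance alone marking about 1 in 20. ZNF224 had its lowest BXPC3 vehicle value in replicate 1, at 31.1 CPM. ZNF467 had its highest BXPC3 AM-9747 value in replicate 3, at 2.42 CPM. The share of counts in all members was lowest among BXPC3 vehicle libraries in replicate 4, at 0.583%.

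For 14 of the named members the response to AM-9747 differed between the lines in the joint fit (edgeR F test, adjusted over all genes tested). That fit models the spread of the lines in common, which gave many false calls in PSN1 in earlier simulations on these data. Of all genes tested, 12.2% passed. Many members were named for large responses in single lines, so the count of 14 is no result about the members. The share over all members, given above, was below that of all genes with a mean of at least 10 CPM. ZNF252P had the smallest adjusted p (0.000156), with the largest fall in BXPC3. Adjusted p was 0.00174 for ZNF121 and 0.00285 for ZNF268, whose largest responses were also in BXPC3. The PSN1 response stood apart for ZNF473 (0.00392), ZNF175 (0.00516), ZNF557 (0.00605) and ZNF185 (0.00672), which rose there, and for ZNF75D (0.0230) and ZNF211 (0.0431), which fell there. ZNF558 (0.00440), ZNF548 (0.00859) and ZNF467 (0.00982) fell in BXPC3 and PSN1 and did not pass in MIAPACA2. ZNF862 (0.0443) rose in MIAPACA2. ZNF367 (0.00226) fell in MIAPACA2, while its PSN1 values went up without passing.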

How the results depend on the processing

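With voom and quality weights the members called with AM-9747 numbered 150 in BXPC3, 89 in MIAPACA2 and 96 in PSN1, against 80, 45 and 32 by edgeR. In the joint fit they were 48, 19 and 91. DESeq2 called 62 in PSN1 and 64 for the difference between lines. The mitochondrial covariate gave 109 in MIAPACA2. Testing all numbered ZNF genes gave 137 in BXPC3 and 68 in MIAPACA2, and members at 10 CPM in each group gave 33, 28 and 17. Leaving out 1 library gave 62 to 107 in BXPC3, 16 to 62 in MIAPACA2, 6 to 61 in PSN1, 20 to 72 for the difference between lines and 89 to 108 for the mean response. Between untreated lines it gave 88 to 126 (BXPC3 and MIAPACA2), 141 to 169 (BXPC3 and PSN1) and 105 to 146 (MIAPACA2 and PSN1). The cause of these changes was not tested, beyond the other genes or fewer samples that an alternative holds. The shares of all genes called with the other tools and the covariate are not given here, so these counts describe nothing particular to the members.

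Whether the replicate numbers pair the samples is not known. A block on them gave 111 members in BXPC3, 29 in MIAPACA2, 57 in PSN1, 53 for the difference between lines and 106 for the mean response. Between the untreated lines it gave 105, 153 and 120. Not every library correlated best with its own number. Of 1455 refits of the 81 calls of named members in single lines, 1208 kept the call, 247 lost it and 0 reversed. Of the 81 calls, 44 held without any 1 library. The 4 libraries per group and the wide spread in PSN1 limit its calls.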
